A study of Mus musculus with 42 samples.

Results

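The TRIM genes, which encode tripartite motif proteins, were followed in mouse spleen for 14 days after activation of the endosomal DNA receptor TLR9. Members were all genes whose single symbol in the array annotation was Trim followed by a number and at most 1 letter, which gave 45 of the 15277 genes on the array. Most TRIM proteins carry a RING domain, B-box domains and a coiled coil, and many act as ubiquitin ligases. Several are induced by interferon and either restrict viruses or tune the pathways that sense nucleic acids, while others work in transcription, in muscle, in neurons or in maturing red cells. Proteins of the family with other names, such as PML, are no members under this rule and are described at the end.

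Female BALB/c mice received 400 µg of DNA oligonucleotides (ODN) in the peritoneum. The CpG mixture held ODN 1555 and 1466 in equal molar amounts, and its spleens were taken at 8 times: 3 h, 9 h, 24 h and 72 h, then on days 5, 7, 9 and 14. The control mixture held ODN 1612 and 1471, with spleens at 3 h, and a further group of the same strain was untreated. Each treated group had 4 arrays and the untreated group 6, called independent biological replicates by the submitters. No age is given in the sources used here, the later times had no control ODN group of their own, and the spleen was measured whole, so fewer cells of a type and less RNA per cell cannot be told apart.

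Every value is a log2 ratio of spleen RNA over a common mouse reference RNA, and both base 2 and the direction were inferred from the values. Ratios of different genes are not set against each other, because each depends on that gene's level in the reference. A gene's value is the mean of its array features, and 20 members had more than 1 feature. Lymphocyte markers of spleen stood above the reference in untreated mice, with a mean of 3.22 ± 0.29 over 8 B cell genes and 2.01 ± 0.25 over 9 T cell genes (SD, n = 6). Between 173 and 1740 of the 30601 features had no value on an array. The arrays' database numbers form 10 runs, and the labels do not say whether these were processing batches. Of the 6 untreated arrays 5 stand in a run of their own, and the sixth shares a run with 2 CpG 3 h arrays. The 9 h and 24 h arrays share no run with untreated arrays either. They are tied to them only through the CpG 3 h arrays and that 1 untreated array. At 72 h and later, and for control ODN, no such tie exists, so run and treatment cannot be told apart there.

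At 3 h after CpG most of the members that rose were interferon-inducible ones. Trim30a, Trim30d, Trim30b, Trim12c, Trim34a and Trim25 rose, as did Trim69 and Trim56, while Trim59, Trim41 and Trim65, a ligase of the RNA sensor MDA5, fell. These are 11 of 45 members, 8 higher and 3 lower, by limma at an adjusted p below 0.05 (Benjamini-Hochberg), where 11.6% of all genes passed, 7.70% higher and 3.93% lower. The share was 24.4% of members. Of 16 TRIM genes listed as interferon-inducible 10 were on the array and tested, and 7 of these rose. The median difference over those 10 was 1.09. The median difference was 0.03 over the members and -0.02 over all genes tested.

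At 9 h 8 of 43 members rose and 0 fell, against 8.52% of all genes called, 5.07% higher and 3.45% lower. Of the higher ones 7 had also risen at 3 h: Trim12c, Trim25, Trim30a, Trim30b, Trim30d, Trim34a and Trim69. These 7 are grouped below only as the members called at both times. Of 24 interferon-stimulated genes outside the family, 24 rose at both times (median 2.27 at 3 h and 2.21 at 9 h). The mean of the 23 of them measured on every array was 3.13 ± 0.19 at 3 h and 2.89 ± 0.22 at 9 h (SD, n = 4), and 0.69 ± 0.13 in untreated spleens (SD, n = 6).

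**Figure D1:**
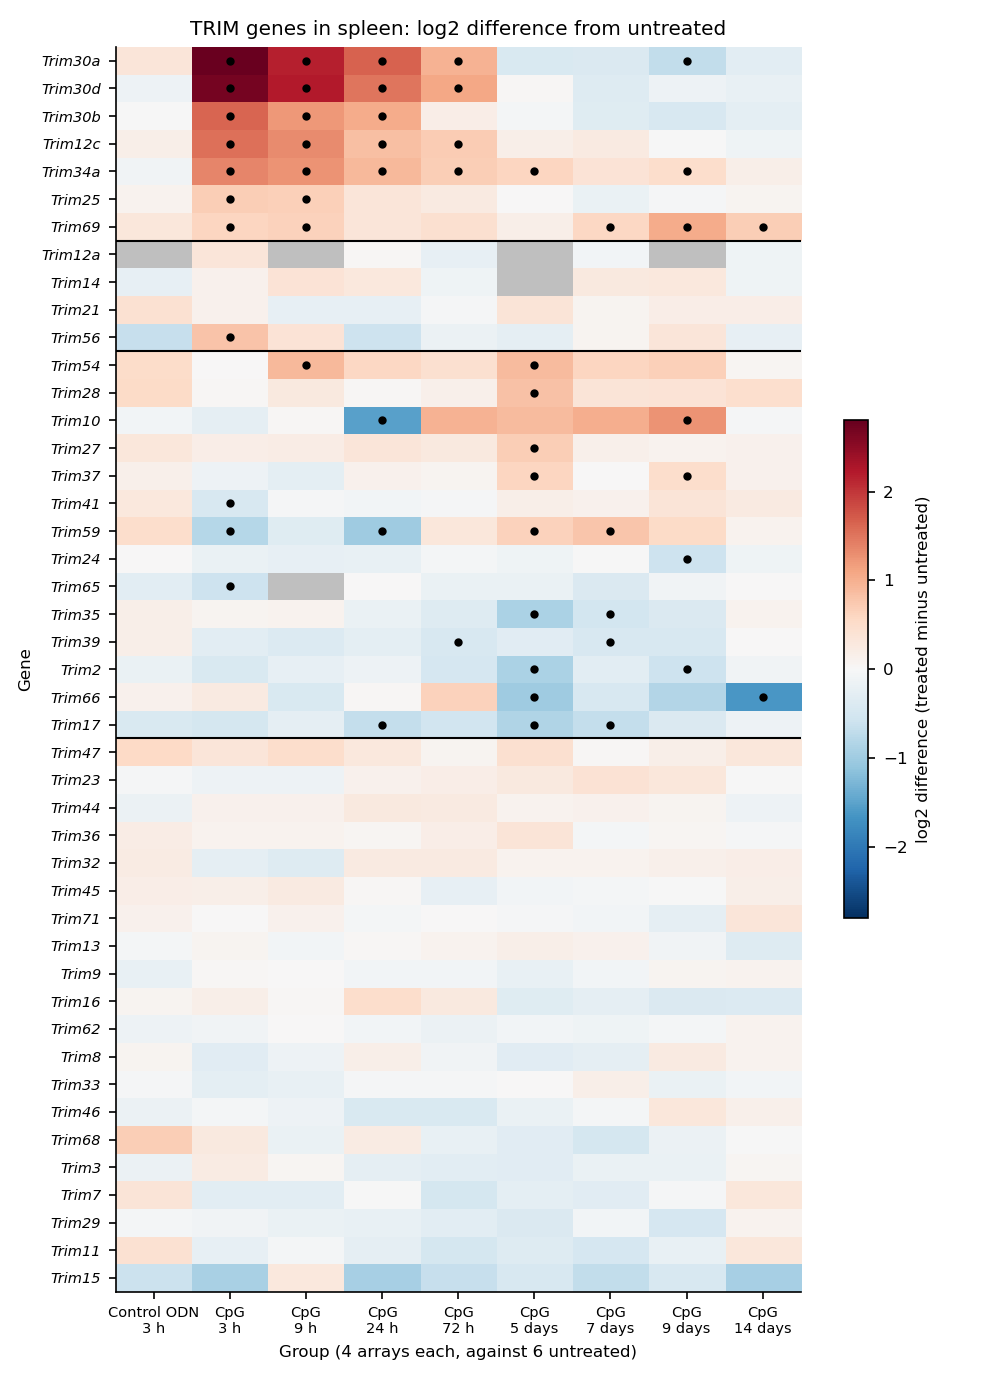
Log2 difference from untreated of the 45 TRIM genes (down the page) in control ODN spleens and at the 8 CpG times (across), with a dot where limma's adjusted p was below 0.05 and grey where fewer than 3 arrays of a group had a value. The lines part the 7 genes that rose at both 3 h and 9 h, the other 4 interferon-inducible genes, the other genes called against untreated, and the rest; the strongest red stands at 3 h and 9 h in Trim30a and Trim30d.

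Of the 7 genes 5 lie close together on chromosome 7. In the GRCm38.p6 gene order of RefSeq the cluster runs Trim34a, Trim5, Trim12a, Trim34b, Trim12c, Trim30b, Trim30c, Trim30a and Trim30d, with a few noncoding or unnamed genes between. Within it Trim30a, Trim30b and Trim30d are close copies, and so are Trim12a with Trim12c and Trim34a with Trim34b, so a feature may also have measured a copy and the values of these genes are uncertain to that degree.

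Start regions of these genes are shown because the interferon-stimulated response element, bound by IRF proteins, holds a pair of GAAA blocks. The letters GAAANNGAAA were searched on both strands from 250 bases before to 50 after each RefSeq start (GRCm38.p6), and matches are in capitals, written on the gene's strand. The first stretches are the 100 bases before the start of Trim30a (chr7:104465194-104465293, minus strand), Trim30d (chr7:104507850-104507949, minus strand), Trim12c (chr7:104353350-104353449, minus strand) and Trim30b (chr7:104358647-104358746, minus strand). Then come stretches of 30 bases after the start of Trim34a (chr7:104244457-104244486, plus strand), Trim12a (chr7:104315466-104315495, minus strand) and Trim21 (chr7:102565447-102565476, minus strand).
Trim30a: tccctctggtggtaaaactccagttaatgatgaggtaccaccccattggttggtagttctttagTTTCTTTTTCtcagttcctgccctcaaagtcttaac
Trim30d: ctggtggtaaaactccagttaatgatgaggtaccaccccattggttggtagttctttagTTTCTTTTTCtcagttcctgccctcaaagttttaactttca
Trim12c: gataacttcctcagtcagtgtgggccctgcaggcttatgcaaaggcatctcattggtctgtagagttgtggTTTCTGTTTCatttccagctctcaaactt
Trim30b: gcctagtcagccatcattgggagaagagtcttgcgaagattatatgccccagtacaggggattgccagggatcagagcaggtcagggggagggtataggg
Trim34a: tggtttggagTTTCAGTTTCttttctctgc
Trim12a: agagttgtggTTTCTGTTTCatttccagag
Trim21: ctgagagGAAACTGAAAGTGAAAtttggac

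Trim30a and Trim30d shared a run of 89 bases, while the longest run shared by Trim30a and Trim30b was 6 bases. The letters were found in 4 of the 7 genes that rose at both times (Trim12c, Trim30a, Trim30d and Trim34a) and in 3 of the other 27 members with a window (Trim2, Trim12a and Trim21). Of all RefSeq genes with a window 3.99% held them, and of the genes of the interferon-stimulated list 58.8% (10 of 17). Trim25, Trim30b and Trim69 had no match in this window. A match describes letters and is not a measured site.

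Trim30a, whose mouse protein lowers Toll-like receptor signalling to NF-kB by removing TAB2 and TAB3, was the member with the largest rise at 3 h. Its 4 CpG 3 h arrays read 4.59, 4.94, 5.16 and 5.27, and the untreated arrays ran from 2.03 through a median of 2.22 to 2.49. No array of one group reached the other, and control ODN arrays, at 2.87, 2.15, 3.04 and 2.17, stayed below all CpG 3 h arrays. The log2 difference from untreated was 2.77 ± 0.21 at 3 h (standard error, limma adjusted p = 4.24e-13), 2.17 at 9 h, 1.64 at 24 h and 0.97 at 72 h, all called. At 9 days it was lower than in untreated spleens (-0.68 ± 0.21, adjusted p = 0.0277), with arrays from 1.26 to 1.82 that all lay below the untreated range.

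Trim30d, the neighbouring copy, read 4.26, 4.09, 4.56 and 4.62 at 3 h after CpG. Untreated arrays ran from 1.42 through 1.78 to 1.89, so the groups were far apart. The difference was 2.67 ± 0.17 at 3 h (adjusted p = 1.81e-15), 2.22 at 9 h, 1.50 at 24 h and 1.09 at 72 h. Against control ODN at 3 h it was 2.81 ± 0.19 (adjusted p = 1.40e-14). Between 9 h and 24 h it fell by 0.72 ± 0.19 (adjusted p = 0.0122), and no 24 h array reached a 9 h array.

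Trim30b rose by 1.63 ± 0.17 at 3 h (adjusted p = 1.39e-09), 1.21 at 9 h and 1.04 at 24 h. That mean covers 3 features that disagreed. At 3 h 2 of them differed from untreated by 2.35 and 2.30 and the third by 0.23, and at 9 h by 1.82, 1.80 and 0.00. The group means of the third lay between -0.43 and 0.07 at the 8 CpG times, and it averaged -0.16 ± 0.36 (SD, n = 6) in untreated spleens. Which feature reads Trim30b alone was not tested.

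Trim12c, a mouse relative of the retrovirus restriction factor TRIM5, read 3.05, 3.13, 3.34 and 3.19 at 3 h. Untreated arrays ran from 1.26 through 1.52 to 2.06, below all of these. It rose by 1.54 ± 0.17 at 3 h (adjusted p = 3.55e-09), and by 1.33 at 9 h, 0.83 at 24 h and 0.72 at 72 h. Its features differed from untreated by 2.25 and 0.83 at 3 h.

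Trim34a, another relative of TRIM5, was the gene of the cluster still called higher at 5 days. Its 3 h arrays read 2.62, 2.30, 2.84 and 2.52, and untreated arrays ran from 0.94 through 1.20 to 1.47. The groups did not overlap, and the difference was 1.37 ± 0.17 at 3 h (adjusted p = 5.18e-08), 1.25 at 9 h, 0.91 at 24 h, 0.69 at 72 h and 0.60 at 5 days. At 7 days the difference was 0.38 and not called, and it was called again at 9 days (0.50 ± 0.17, adjusted p = 0.0401), where the groups overlapped. Its features went apart at 14 days, with means of 1.28, 0.79 and 2.01 in CpG spleens and 1.32, 1.26 and 1.01 in untreated spleens.

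Trim25, the ligase that activates the RNA sensor RIG-I, changed less. Its 3 h arrays read 1.58, 0.99, 1.04 and 1.48, and untreated arrays ran from 0.34 through 0.55 to 0.92. It rose by 0.69 ± 0.16 at 3 h (adjusted p = 0.00188) and by 0.66 ± 0.16 at 9 h (adjusted p = 0.00462), where 1 CpG array at 0.74 lay within the untreated range. At 24 h the difference was 0.34 and was not called.

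**Figure D2:**
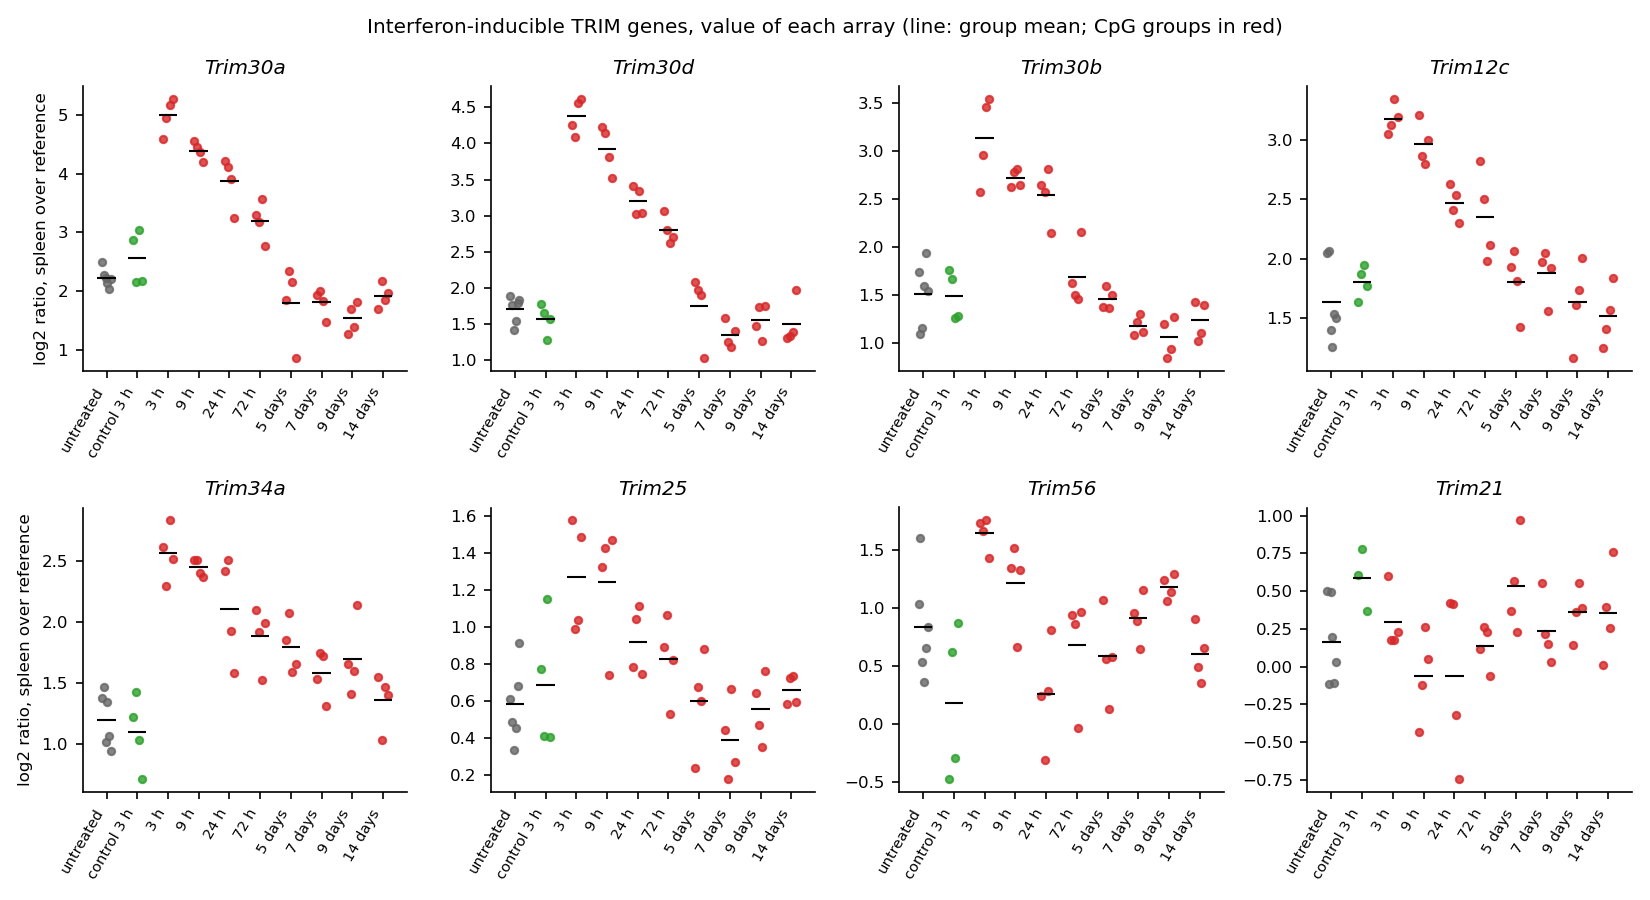
Log2 ratio of spleen over reference on each array (points) and the group mean (line) for 8 interferon-inducible TRIM genes in untreated, control ODN and CpG spleens in order of time. Trim30a, Trim30d, Trim30b, Trim12c and Trim34a stand above all untreated arrays at 3 h and 9 h, while Trim21 shows no such step. For Trim56, 1 untreated array reaches its 3 h values. Trim30b is no longer called higher at 72 h, and Trim30a, Trim30d, Trim12c and Trim34a come down by 5 days or later.

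Of the 7 genes, 6 were close to the interferon-stimulated list in their course. Over the means of the 9 treated groups (8 CpG times and control ODN), Pearson's r with the list mean was 0.99 for Trim12c and Trim30d, 0.96 for Trim30b, 0.95 for Trim30a and Trim34a, and 0.93 for Trim25. The 7 genes were picked by their rise at 3 h and 9 h, where the list rose too, which favours a high r. Gene and list also share arrays and untreated baseline, so these r values only describe. By the same measure Trim69 was at -0.05, and Trim41, the member most opposed to the list, at -0.89.

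Monocyte and macrophage markers were high at the same times. The mean of 6 of them was 2.36 ± 0.17 at 3 h, 2.22 ± 0.11 at 9 h, 2.41 ± 0.18 at 24 h, 2.04 ± 0.21 at 72 h, 1.34 ± 0.17 at 5 days and 0.78 ± 0.18 at 14 days after CpG (SD, n = 4 each). It was 1.24 ± 0.25 with control ODN (SD, n = 4) and 0.72 ± 0.21 in untreated spleens (SD, n = 6). Of 9 such markers 4 rose at 3 h (Cd14, Ly6c1, Ms4a6d and Msr1), 5 rose and 1 fell at 9 h, and 6 rose at 24 h. With control ODN 3 of the 9 rose against untreated (Cd14, Ms4a6d and Msr1). The part of these cells in the TRIM values was not tested.

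Within the run that holds both CpG 3 h and untreated arrays (2 against 1), the differences were 2.95 for Trim30a, 2.82 for Trim30d, 2.41 for Trim30b, 1.21 for Trim34a, 1.20 for Trim12c, 0.93 for Trim69 and 0.77 for Trim25. With run as a block the first 5 kept their call at 3 h, and Trim25 (adjusted p = 0.228) and Trim69 (adjusted p = 0.194) lost it. At 9 h and 24 h only Trim30a, Trim30b and Trim30d kept it. All these blocked values rest on 1 untreated array.

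Trim69, a microtubule-bound protein, was called higher at 3 h and 9 h, not from 24 h to 5 days, and again at 7, 9 and 14 days. Its arrays read 0.61, 0.80, 0.52 and 0.43 at 3 h and 0.81, 0.87, 1.14 and 1.23 at 9 days, and untreated arrays ran from -0.46 through -0.01 to 0.29. The difference was 0.61 ± 0.19 at 3 h (adjusted p = 0.0250), 0.65 at 9 h, 0.58 at 7 days, 1.03 ± 0.19 at 9 days (adjusted p = 0.000267) and 0.70 at 14 days, all called. Between, it was 0.35 at 24 h, 0.46 at 72 h and 0.17 at 5 days. In the run they share, arrays averaged 0.44 at 72 h, 0.56 at 7 days and 0.68 at 14 days. The step from 72 h to 7 days was not tested. Against control ODN at 3 h the difference was 0.29 ± 0.20 and not called (adjusted p = 0.335). Only 1 of its 2 features carried this. It averaged 1.32 ± 0.39 at 3 h and 2.09 ± 0.42 at 9 days (SD, n = 4), against -0.01 ± 0.60 in untreated spleens (SD, n = 6), while the other was at -0.15, -0.06 and -0.03. The mean of 7 neutrophil markers was also highest late, at 5.35 ± 0.15 at 9 days and 4.97 ± 0.22 at 14 days, against 2.89 ± 0.31 untreated, and its part in the Trim69 values was not tested.

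**Figure D3:**
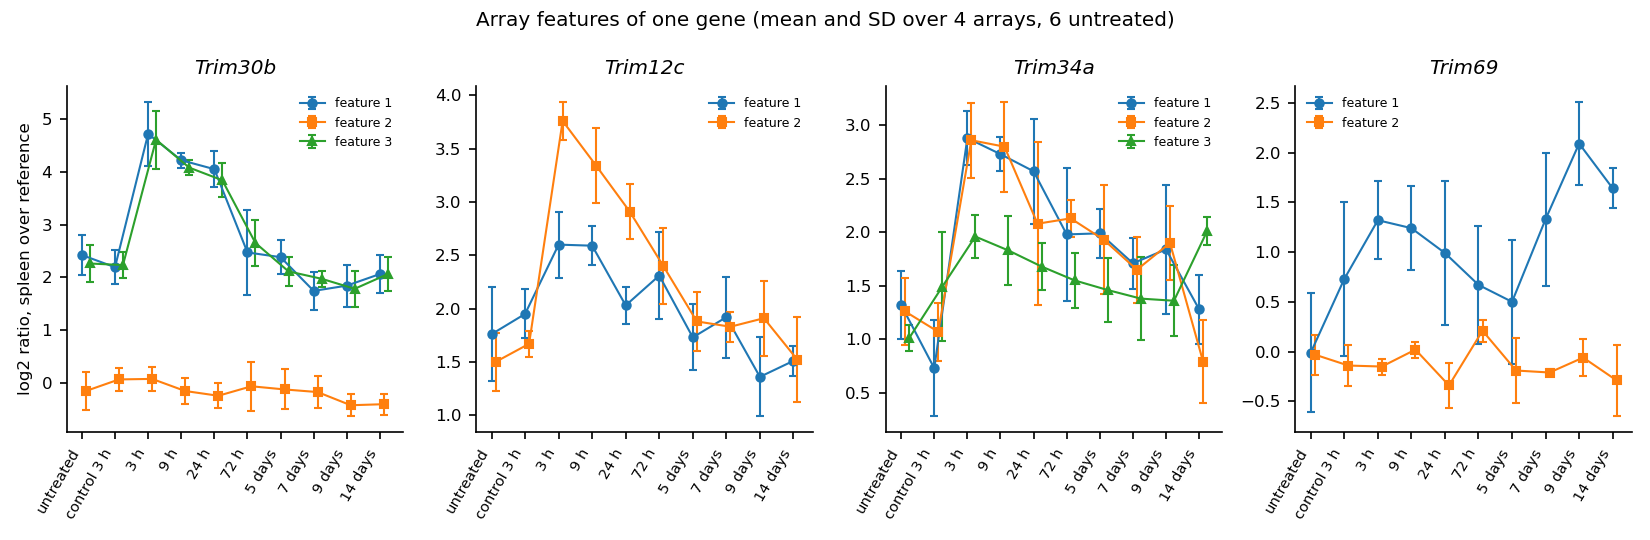
Mean log2 ratio and SD (bars, 4 arrays a group and 6 untreated) of each array feature of Trim30b, Trim12c, Trim34a and Trim69 across the groups. For Trim30b 2 features step up at 3 h and the other stays near 0, and for Trim69 1 feature rises at 3 h and again to 2.09 at 9 days while the other stays near 0.

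The other 4 measured genes of the interferon-inducible list did not rise at both times. Trim56, a ligase that acts on the cGAS and STING pathway, read 1.73, 1.66, 1.75 and 1.43 at 3 h. Untreated arrays ran from 0.36 through 0.74 to 1.60, so 1 untreated array overlapped. It rose by 0.81 ± 0.24 at 3 h (adjusted p = 0.0196), but within the shared run, whose untreated array is the high one, the difference was -0.01. With run as a block it was likewise -0.01 (adjusted p = 0.996) and the call was lost. At 24 h it had fallen by 0.96 ± 0.26 relative to 9 h (adjusted p = 0.0185).

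Trim21, a cytosolic antibody receptor and ligase, differed from untreated by 0.13 at 3 h and -0.23 at 9 h and was called in none of the comparisons. Its 3 h arrays read 0.60, 0.17, 0.18 and 0.23, within the untreated range of -0.11 to 0.50 but for 1 array. Trim14, an adaptor at MAVS, differed by 0.13 ± 0.22 at 3 h and 0.38 ± 0.22 at 9 h, neither called. Its features disagreed, at 0.31 and -0.05 at 3 h and at 0.76 and 0.01 at 9 h, and 36 arrays had a value. Trim12a, the copy of Trim12c, differed by 0.33 ± 0.22 at 3 h with values on 3 of 4 arrays, and was not tested at 9 h.

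Control ODN at 3 h gave no member called of 44, where 3.52% of all genes were called (2.45% higher, 1.07% lower) and 9 members had an unadjusted p below 0.05. The interferon-inducible members had a median difference of -0.02 there, and the interferon-stimulated list 0 of 24 called. CpG against control ODN at 3 h called 12 of 44 members, 7 higher and 5 lower, against 20.7% of all genes, 9.23% higher and 11.5% lower. The 7 higher were Trim12c, Trim25, Trim30a, Trim30b, Trim30d, Trim34a and Trim56. Both comparisons use the same control ODN arrays. CpG 3 h and control ODN arrays share no run, so run and treatment cannot be told apart in the second.

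The CpG 3 h arrays of Trim56 all lay above the control ODN arrays, which read -0.48, 0.62, -0.29 and 0.87, and the difference was 1.46 ± 0.26 (adjusted p = 8.16e-05). The 5 lower members were Trim59, Trim41, Trim7, Trim11 and Trim39. Trim65, lower than untreated at 3 h, was not among them. With a value on 40 of 42 arrays, Trim65 was not fitted with run as a block. Trim41, a ligase of protein kinase C, read -0.69, -0.72, -0.55 and -0.81 with CpG and 0.21, -0.22, 0.46 and -0.24 with control ODN, which did not overlap (-0.74 ± 0.17, adjusted p = 0.00142). Against untreated spleens its 3 h difference was -0.46 ± 0.15 (adjusted p = 0.0438), and -0.38 (adjusted p = 0.676) with run as a block. Trim7, which binds glycogenin, differed by -0.65 ± 0.20 (adjusted p = 0.0172), with overlapping groups, and without CpG 3 h replicate 3 by -0.52 (adjusted p = 0.0866) and without control ODN replicate 1 by -0.51 (adjusted p = 0.0880).

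Between 3 h and 9 h no member of 43 changed by limma, against 1.44% of all genes (0.291% higher, 1.15% lower), and 7 had an unadjusted p below 0.05. From 9 h to 24 h 4 of 43 were called, near the 9.70% of all genes (6.39% higher, 3.31% lower): Trim10, Trim30d and Trim56 fell and Trim32, a ligase known from muscle, rose by 0.62 ± 0.18 (adjusted p = 0.0263). With run as a block Trim30d and Trim56 kept their call, and Trim10 (-1.50, adjusted p = 0.0561) and Trim32 (0.58, adjusted p = 0.0559) lost it.

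At 24 h 8 of 45 members were called against untreated, 5 higher and 3 lower, where 10.9% of all genes were, 8.03% higher and 2.87% lower. The higher ones were Trim12c, Trim30a, Trim30b, Trim30d and Trim34a, and the lower ones Trim10, Trim17 and Trim59, none of these 3 called with run as a block. At 72 h 5 of 45 were called (15.0% of all genes, 8.94% higher and 6.01% lower), Trim12c, Trim30a, Trim30d and Trim34a higher and Trim39 lower. The interferon-stimulated list had 21 of 24 members higher at 24 h and 19 at 72 h.

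Trim10 is known from the last steps of red cell formation. Its arrays read 2.96, 3.69, 1.95 and 3.77 at 24 h and 5.14, 5.81, 6.12 and 6.36 at 9 days, and untreated arrays ran from 3.62 through 4.77 to 5.45. Both groups overlapped the untreated one. The difference was -1.51 ± 0.40 at 24 h (adjusted p = 0.0113) and 1.25 ± 0.40 at 9 days (adjusted p = 0.0336), and without CpG 24 h replicate 3 it was -1.13 at 24 h (adjusted p = 0.116). With run as a block the 24 h call was lost (-2.48, adjusted p = 0.285). Within the run that holds 3 of the 24 h arrays and all 9 h arrays, the difference of 24 h from 9 h was -1.50. Its features disagreed at 9 days, with means of 6.39 ± 0.43 and 5.33 ± 0.66 (SD, n = 4) against 6.09 ± 0.74 and 3.12 ± 0.70 in untreated spleens (SD, n = 6).

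Trim10 moved with the erythroid markers. The mean of 14 of them was 2.32 ± 0.22 at 24 h (2.06 to 2.58) and 3.77 ± 0.38 at 9 days (3.34 to 4.10), against 3.07 ± 0.20 in untreated spleens (2.84 to 3.42). At 24 h 6 of 16 markers fell, and at 9 days 8 of 15 rose. Over the 9 treated groups r between Trim10 and this mean was 0.94, and r with the mean of 13 mitotic genes was 0.79. The part of red cell precursors or of dividing cells in the Trim10 values was not tested.

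Trim59, a membrane-bound family member that restrains NF-kB and interferon signalling, was lower at 3 h and 24 h and rose at 5 and 7 days. Its arrays read -0.10, -0.25, -0.44 and -0.64 at 3 h and 1.20, 1.34, 1.11 and 1.19 at 7 days, and untreated arrays ran from -0.09 through 0.53 to 0.68. All 3 h arrays were below and all 7 day arrays above the untreated ones. The difference was -0.79 ± 0.22 at 3 h (adjusted p = 0.0125), -1.0 ± 0.22 at 24 h (adjusted p = 0.00197), -0.34 ± 0.22 at 9 h, which was not called, 0.65 at 5 days and 0.78 ± 0.22 at 7 days (adjusted p = 0.0139). Against control ODN at 3 h it was -1.27 ± 0.24 (adjusted p = 0.000192), where control ODN arrays averaged 0.92. The 7 day arrays, in the same run as control ODN, averaged 1.21, and they were not tested against control ODN. With run as a block both calls of a lower value were lost (-1.22 at 3 h, adjusted p = 0.138, and -1.68 at 24 h, adjusted p = 0.153).

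Mitotic genes were high at the same late times. The mean of 13 of them was 0.89 ± 0.13 at 5 days and 0.91 ± 0.09 at 7 days, against -0.32 ± 0.24 untreated. At 5 days 13 of 14 rose, and at 7 days 14 of 14. They also rose at 72 h (10 of 14) and 9 days (7 of 14), when Trim59 was not called. At 3 h 0 of 14 passed the test against untreated, while against control ODN 4 were lower and 1 was higher. Over the 9 treated groups r with Trim59 was 0.79 for the mitotic mean and 0.92 for the erythroid mean, and the part of either in its values was not tested.

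**Figure D4:**
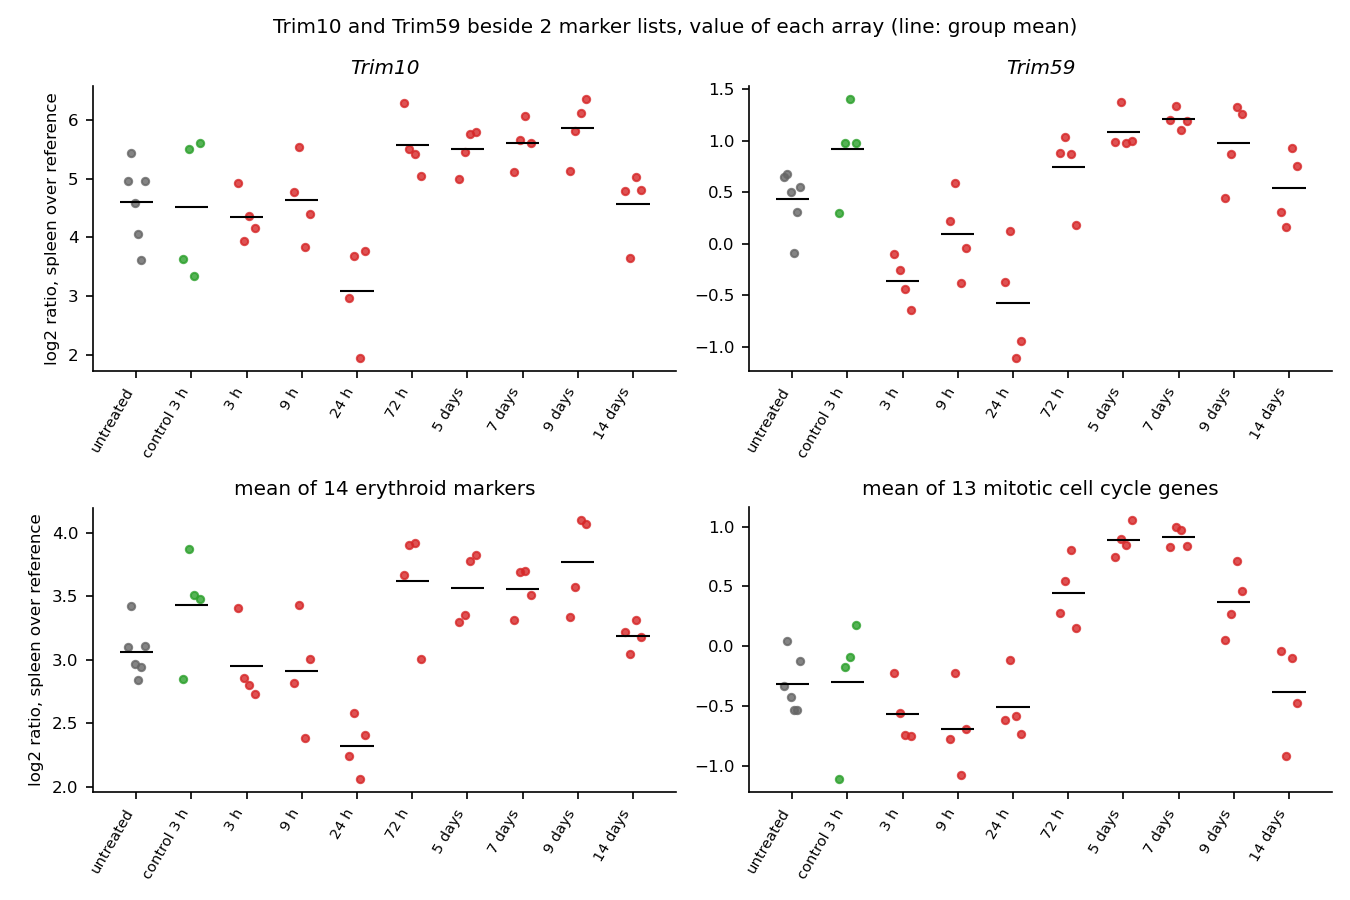
Log2 ratio of spleen over reference on each array (points) and group mean (line) for Trim10 and Trim59, above the mean of 14 erythroid markers and of 13 mitotic genes on the same arrays. Trim10 and the erythroid mean are lowest at 24 h and high from 72 h to 9 days, and Trim59 is below all untreated arrays at 3 h and above them at 5 and 7 days.

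At 5 days 10 of 43 members were called, 6 higher and 4 lower, a share of 23.3% beside the 30.9% of all genes, of which 17.5% were higher and 13.4% lower. Higher were Trim34a, Trim59, Trim27, Trim28, Trim54 and Trim37, a ligase of histone H2A, and lower Trim2, Trim17, Trim35 and Trim66. The interferon-inducible members had a median of 0.03 by then, while 12 of 24 interferon-stimulated genes were still higher and 1 was lower.

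Trim28, the corepressor that zinc finger proteins recruit to silence retroelements, read 0.07, -0.03, -0.10 and 0.54 at 5 days. Untreated arrays ran from -1.39 through -0.75 to -0.14, just below (0.81 ± 0.20, adjusted p = 0.00208). Without the 8 arrays that lacked over 1000 feature values the difference was 0.69 (adjusted p = 0.0692). Of the other TIF1 proteins, which pair the TRIM motif with a chromatin reader, Trim33 was called at no time. Trim66 fell at 5 days and 14 days, and Trim24 fell at 9 days (-0.57 ± 0.16, adjusted p = 0.0139). The features of Trim24 differed from untreated by -0.15, -0.51 and -0.72 at 9 days.

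Trim66, the TIF1 protein known from testis, read -2.95, -3.47, -3.28 and -3.44 at 14 days, below the untreated range of -2.50 to -0.72 with a median of -1.88. The difference was -1.64 ± 0.34 (adjusted p = 0.00422), and -1.55 (adjusted p = 0.122) without those 8 arrays. At 72 h 3 arrays read -0.48, -0.58 and -0.61 and the fourth -2.30.

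Trim27, a nuclear ligase, read 0.51, 0.59, 0.41 and 0.60 at 5 days, above the untreated range of -0.40 to -0.07 (0.69 ± 0.13, adjusted p = 0.000104). Trim35, a ligase expressed in blood cells, read -1.05, -1.12, -1.53 and -1.05, below the untreated range of -0.63 to 0.10 (-0.88 ± 0.16, adjusted p = 6.41e-05), and was lower at 7 days too (-0.51). Trim17, a ligase known from dying neurons, was lower at 24 h (-0.68), 5 days (-0.85 ± 0.19, adjusted p = 0.000725) and 7 days (-0.68). Without those 8 arrays its 5 day difference was -0.68 (adjusted p = 0.0655).

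Trim2, a ligase of neurofilaments in neurons, differed by -0.88 ± 0.18 at 5 days (adjusted p = 0.000216), with features at -1.52 and -0.25. Trim54, which binds microtubules in muscle, was higher at 9 h (0.91 ± 0.28, adjusted p = 0.0320) and 5 days (0.89 ± 0.28, adjusted p = 0.0131). The 9 h call was lost without any of untreated replicates 1 and 6 and CpG replicates 1, 2 and 3, with differences from 0.82 to 0.92, and with run as a block (1.01, adjusted p = 0.767). Of 7 skeletal muscle markers 0 were called at 9 h, with a median difference of 0.08.

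At 7 days 5 of 45 members were called (15.6% of all genes, 8.68% higher and 6.89% lower), Trim59 and Trim69 higher and Trim17, Trim35 and Trim39 lower. At 9 days 7 of 44 were (13.5% of all genes, 8.40% higher and 5.12% lower): Trim10, Trim34a, Trim37 and Trim69 higher and Trim2, Trim24 and Trim30a lower. At 14 days Trim69 was higher and Trim66 lower, 2 of 45 members beside 4.54% of all genes (2.77% higher, 1.77% lower), and 0 of 24 interferon-stimulated genes were called.

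The 72 h and 14 day arrays lie in 1 run of database numbers, so this comparison does not cross runs. It called 14 of 45 members, 8 higher and 6 lower at 72 h, near the 29.1% of all genes (15.5% higher, 13.6% lower). Trim66 (2.29 ± 0.37, adjusted p = 2.39e-05), Trim30d (1.30 ± 0.19, adjusted p = 3.99e-06), Trim30a (1.28 ± 0.23, adjusted p = 0.000123), Trim12c (0.84) and Trim34a (0.52) were higher at 72 h. Trim13, Trim16 and Trim44 were the other higher ones, and Trim7 (-0.82), Trim11, Trim35, Trim39, Trim45 and Trim46 the lower ones.

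Over the 10 comparisons with untreated or control ODN spleens, 24 members were called at least once and 21 in none. Differences of those 21 ran from -0.93, in Trim15, to 0.69, in Trim68 with control ODN. An F test of any difference among untreated and CpG spleens called 29 of 42 members (69.0%), close to the 63.7% of all genes.

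Family members with other names and partners of TRIM proteins complete the account. Pml, the organiser of nuclear bodies, rose by 1.34 ± 0.14 at 3 h (adjusted p = 1.31e-09), 1.03 at 9 h and 0.46 at 24 h. Mefv, which encodes the inflammasome protein pyrin, rose by 1.47 ± 0.28 at 3 h (adjusted p = 0.000155). Mid2, a microtubule-bound ligase, fell by 0.93 ± 0.22 at 3 h (adjusted p = 0.00320), and with control ODN by 0.76 ± 0.22 (adjusted p = 0.0487), while Mid1 was not called at 3 h.

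Of 23 signalling partners 7 rose and 1 fell at 3 h. Those that rose included Ifih1, the RNA sensor MDA5 (3.42 ± 0.18), Ddx58, the RIG-I substrate of TRIM25 (1.62 ± 0.16), Isg15 (2.30 ± 0.24) and Usp18, the protease that removes it (4.01 ± 0.24). Mavs, the adaptor of both sensors, fell by 0.71 ± 0.19 (adjusted p = 0.0105). Those 4 and Irf7, which also rose (0.79 ± 0.23), belong to the interferon-stimulated list as well. Tbk1, a kinase of the interferon pathway (0.70 ± 0.15), and the RNA receptor Tlr3 (0.77 ± 0.20) rose and are on the partner list alone.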

How the data were processed

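The values analysed are log2 ratios of spleen (Cy5) over reference RNA (Cy3), as the authors deposited them, on 42 arrays with 2 channels. Labelling is per the labels' protocols, and no source used here gives the normalization or the spot filter. Array medians ran from -0.014 to 0.019, and 0 columns belonged to no sample. Features with 1 symbol were averaged per gene. Differences came from limma (version 3.58.1, under R 4.3.3), with all groups in a single model, for genes with at least 3 arrays in both groups. Calls needed a p below 0.05 after Benjamini-Hochberg adjustment over all genes of a comparison (2-sided), and ± beside a difference is the standard error. The number of arrays limits precision. The test was checked on simulated data. Runs are arrays whose database numbers lie within 12 of the next. Named were all measured genes of the interferon-inducible list and the 12 other called members with the largest difference; others were named to complete counts, after their values were seen. Members and lists were chosen with earlier results of these data known. Alternatives changed centring, scaling, filter, feature summary, arrays fitted, weights, blocks and threshold. Start regions are from RefSeq (GRCm38.p6), where 34 of 45 members matched. Figures used matplotlib 3.10.9 in python 3.11.15.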

Additional observations from a re-analysis of the deposited data

Results flagged for a closer look

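Over 208 groups of arrays of the 22 named members, 10 held an array far from the others by Dixon's gap, and chance gives about 1 in 20. At 3 h after CpG these were Trim14 on replicate 4 (0.49) and Trim21 on replicate 1 (0.60). At 72 h they were Trim56 on replicate 3 (-0.04), Trim66 on replicate 4 (-2.30) and Trim28 on replicate 4 (-0.39). Later ones were Trim59 on 5 day replicate 2 (1.38), Trim35 on 5 day replicate 3 (-1.53), Trim28 on 7 day replicate 4 (-0.78) and Trim30d on 14 day replicate 4 (1.97). Among untreated arrays Trim27 on replicate 5 (-0.40) stood apart.

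Effects against the same untreated arrays differed between times by limma's test of the difference itself. From 9 h to 24 h the difference was -0.72 for Trim30d, -0.96 for Trim56 and -1.54 for Trim10. At 72 h minus 14 days it was 0.84 for Trim12c, 1.28 for Trim30a, 1.30 for Trim30d, 0.52 for Trim34a, 2.29 for Trim66, -0.48 for Trim35 and -0.82 for Trim7.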

How the results depend on the processing

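Of 86 called differences of single members, 1 changed direction: Trim56 at 3 h was -0.01 with run as a block (adjusted p = 0.996), where the 3 h value rests on 1 untreated array. The other 85 kept their direction in all alternatives run, and calls were lost in 18 of the 42 that could be fitted with run as a block, 24 of 85 without the 8 arrays that had over 1000 missing values, 14 with only the groups compared, 10 with the replicate block, 7 with quantile normalization and 40 on leaving out at least 1 single array. Requiring a 2-fold difference as well left 5 members called at 3 h, 5 at 9 h, 5 at 24 h, 1 at 72 h, 0 at 5 days, 0 at 7 days, 2 at 9 days, 1 at 14 days, 7 against control ODN, 1 from 9 h to 24 h and 3 at 72 h against 14 days. Run as a block gave 5 at 3 h, 3 at 9 h, 3 at 24 h and 2 from 9 h to 24 h; other comparisons with untreated could not be fitted. Array weights gave 21 at 72 h, 16 at 5 days, 11 at 7 days, 1 for control ODN and 1 from 3 h to 9 h. Fitting only the groups compared gave 11 at 7 days and 0 from 9 h to 24 h. Keeping genes with a value on all 42 arrays gave 1 at 14 days and 1 for control ODN. Leaving out the 8 arrays with over 1000 missing values, chosen after seeing the data, gave 4 at 5 days, 0 at 14 days and 4 at 72 h against 14 days, and ended the calls of Trim66 at 14 days (-1.55, adjusted p = 0.122), Trim17 (-0.68) and Trim28 (0.69) at 5 days. The cause was not tested.

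Leaving out 1 array at a time gave 8 to 11 members at 3 h, 6 to 9 at 9 h, 6 to 13 at 24 h, 4 to 7 at 72 h, 9 to 11 at 5 days, 2 to 5 at 7 days, 2 to 7 at 9 days, 1 to 2 at 14 days, 0 to 5 for control ODN, 9 to 15 against control ODN, 0 to 0 from 3 h to 9 h, 1 to 5 from 9 h to 24 h and 8 to 13 at 72 h against 14 days. The arrays whose removal moved a count by over 1.5 times were 24 h replicate 4 (13) and control ODN replicate 4 (5); at 7 days untreated replicates 1, 3 and 6 and CpG replicates 2 and 3 (3 each) and 4 (2); at 9 days untreated replicate 5 (4) and CpG replicates 3 and 4 (2 each); at 14 days untreated replicates 1 and 2 and CpG replicates 2 and 4 (1 each). From 9 h to 24 h they were 9 h replicates 1 (1), 2 and 4 (2 each) and 24 h replicate 3 (1), and at 72 h against 14 days 72 h replicates 1 (8) and 2 (9) and 14 day replicate 2 (9).

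The main fit did not pair arrays by replicate number. Residuals of same-numbered arrays correlated from -0.37 to 0.52 (median 0.03, 180 pairs), against a median of -0.02 for other numbers. Of 40 arrays, 18 were closest to their own number among the numbers 1 to 4, so some sharing by number may exist. With the replicate block 10 members were called at 3 h, 7 at 9 h, 8 at 24 h, 4 at 72 h, 10 at 5 days, 4 at 7 days, 5 at 9 days, 2 at 14 days, 0 for control ODN, 11 against control ODN, 0 from 3 h to 9 h, 4 from 9 h to 24 h and 13 at 72 h against 14 days. The block ended the 9 h call of Trim54 (0.91, adjusted p = 0.0753).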
